A study of Mus musculus with 18 samples.

Results

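Gene expression was compared between naive CD4+ T cells of mice that had lost the adaptor LAT for 4 weeks and of LAT WT mice given tamoxifen for the same time. The comparison takes 6 of the 18 arrays of the series, 3 of LAT KO and 3 of LAT WT mice, chosen by the genotype and time in their titles, and all measured genes. RNA of sorted CD44low CD4+ spleen cells of C57BL/6 mice was labelled with Cy3 and hybridised to single-colour Agilent mouse arrays, 1 mouse per array. By the titles, LAT KO mice were ERCre+LAT f/- (a floxed and a null Lat allele with a tamoxifen-inducible Cre) and LAT WT mice were ERCre-LAT f/-, so both groups carried a null allele and WT cells had LAT from the floxed allele alone. The series text gives all mice as Cre-positive, and by the titles an effect of Cre and one of LAT loss cannot be told apart. Tamoxifen reaches every cell with the Cre, not T cells alone, and all 6 mice were labelled male. Where used for contrast, LAT Y136F mice (ERCre+LAT f/m, a floxed allele and one with the Y136F change, all labelled female) were also treated for 4 weeks, and the 1-week LAT KO and WT groups had the genotypes above, with mice of both sexes. In total 31574 genes and unnamed sequences were tested, 17030 with a gene symbol and 14544 without.

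LAT sits in the plasma membrane and is phosphorylated when the T cell receptor (TCR) is engaged. It then gathers phospholipase C-gamma 1, Grb2 and Gads, which lead to calcium release, the ERK pathway and the transcription factors downstream of them. In a resting T cell, weak contacts with self peptides on MHC keep this pathway active at a low, tonic level. The EGR and NR4A factors and Irf4 are known as genes whose transcription follows the strength of that signal. Type I interferon acts through its receptor and a complex that holds STAT2 and IRF9 on the interferon-stimulated response element, and naive T cells express many of its target genes at a basal level.

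The 6 arrays were alike in brightness, with a 75th percentile of 1124 to 1439 intensity units and 91.3% to 95.9% of spots well above background. Values below are scaled log2 signals, in which 0 is the 75th percentile of the array, and differences are LAT KO minus WT on that log2 scale. A value of one probe cannot be set against that of another. LAT KO replicate 2 went against its label: it was labelled male, but Xist was at 0.21. It was -7.99 to -7.03 in the other 5 arrays and -0.19 to 0.74 in 9 arrays of the series labelled female. In LAT KO replicate 2 the Y-linked Ddx3y was at -8.92 and Eif2s3y at -8.61, against -0.49 to -0.29 and -0.68 to -0.39 in the other 5. A further array labelled female, of the 1-week LAT KO group and left out of those 9, had the opposite pattern (Xist -9.30, Ddx3y -0.23). Whether the 2 arrays were exchanged was not tested. LAT KO replicate 2 also stood farther from its group than the other arrays: 8.62% of genes lay 1 log2 unit or more from the mean of the other 2 replicates, against 2.7% to 4.1% in the other 5 arrays. The calls and the medians of the main gene groups are therefore given with and without it.

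Lat itself had lower values in LAT KO cells and was not called. The Lat probe read 3.16, 2.62 and 2.34 in LAT KO replicates 1 to 3 and 3.29, 3.62 and 3.85 in WT replicates 1 to 3. Every LAT KO array lay below every WT array, but LAT KO replicate 1 came within 0.14 of WT replicate 1. The difference was -0.88 ± 0.23 (SE, n = 3 per group; limma adjusted p = 0.219), and an exact two-sided permutation test gave p = 0.1, the smallest that 3 against 3 arrays allow. It was -0.84 without LAT KO replicate 2. The sources used here do not say whether the probe falls within the deleted exons, so this signal does not measure how complete the deletion was.

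At an adjusted p under 0.05 (limma, Benjamini-Hochberg over all tested), 31 of the 31574 were called, or 0.0982%: 18 were higher in LAT KO cells (0.057%) and 13 lower (0.0412%). Of these, 24 had a symbol and 7 did not. In all 31 the LAT KO and WT arrays did not overlap, which held for 9.17% of all tested in the upward and 14.2% in the downward direction. At an unadjusted p under 0.05, 1849 (5.86%) were higher and 1611 (5.1%) lower. The median of all differences was -0.17 and not 0, it was -0.06 after quantile normalization and -0.02 in the deposited series matrix, and the differences that follow are to be read against it. Without LAT KO replicate 2 all 31 kept an unadjusted p under 0.05, the sequence AK043468 with only 1 LAT KO value left. Their sign and the lack of overlap could not change, because leaving out an array cannot make separate groups overlap. The lack of overlap was counted for the 30 that kept at least 2 LAT KO values. With that array 28 of the 31 differed at least 2-fold (0.329% of all tested in the upward and 2.86% in the downward direction), and 25 did without it. Only 5 of the 31 still passed the adjusted threshold without it: Egr2, Irf4, Nr4a1 and Syp, which fell (0.0127% of all tested), and Slco3a1, which rose (0.00317%). The number called over all genes was also 5 without WT replicate 3, 8 without LAT KO replicate 1, 11 without WT replicate 2, 14 without LAT KO replicate 3 and 38 without WT replicate 1.

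**Figure D1:**
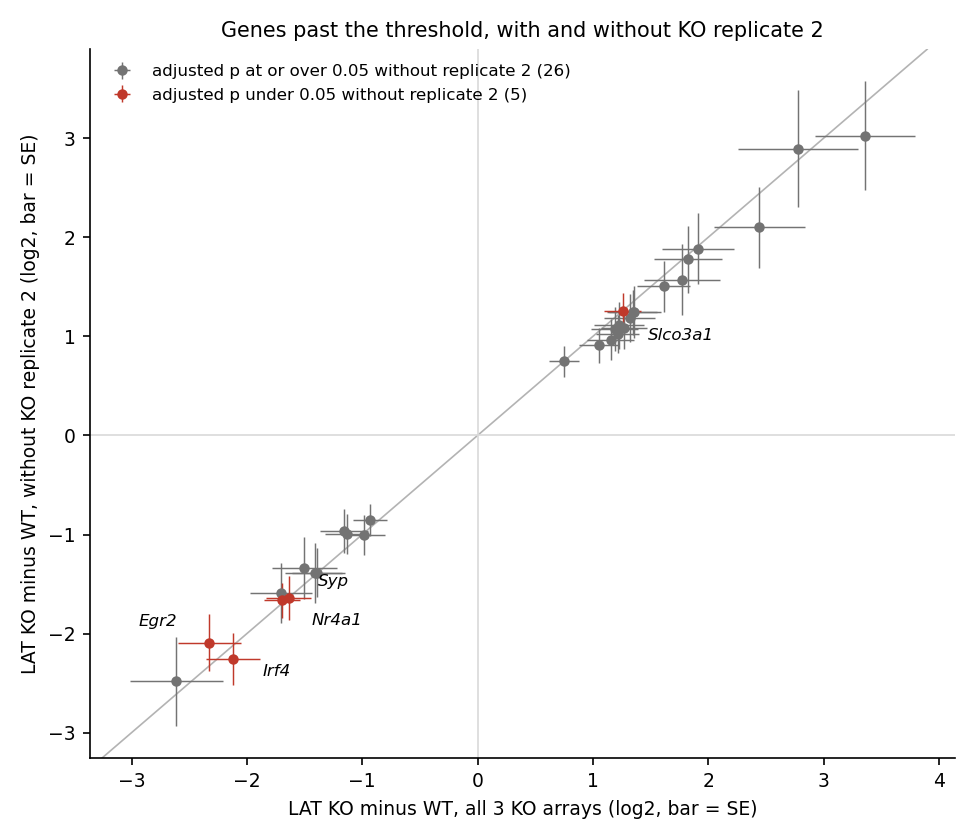
LAT KO minus WT difference (log2, bars are SE) of the 31 called genes and sequences with all 3 LAT KO arrays (horizontal axis) and without LAT KO replicate 2 (vertical axis). The points lie close to the line of equality, and the 5 in red kept an adjusted p under 0.05 without that array.

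Transcription factors that respond to TCR signals were lower. Of 10 tested EGR and NR4A factors, NAB corepressors and Irf4, 5 fell, 0 rose and 5 were not called. Of all tested, 0.0412% fell and 0.057% rose. The median difference of the 10 was -1.39, or -1.41 without LAT KO replicate 2, against -0.17 for all tested. In 8 of the 10 every LAT KO array lay below every WT array, with and without that replicate, against 14.2% and 17.4% of all tested. These are bulk samples of sorted cells, so fewer cells with a transcript and less of it per cell cannot be told apart.

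Egr2, a zinc finger factor that restrains T cell activation, read -0.64, -1.34 and -0.64 in LAT KO replicates 1 to 3 and 1.87, 1.36 and 1.13 in WT. It was 5.01-fold lower, and replicate 2 was the lowest array. Egr1, an ERK target and the family's prototype, read -0.62, -0.87 and -0.46 in LAT KO and 1.103, 1.22 and 0.84 in WT, 3.25-fold lower. Egr3, which shares functions with Egr2, read -3.43, -3.34 and -3.22 in LAT KO and -2.17, -1.81 and -1.83 in WT, 2.63-fold lower. In all 3 EGR genes the gap between the groups was wider than the spread within either. Egr4 was not called, with -4.92, -5.21 and -4.57 in LAT KO against -4.42, -4.21 and -4.29 in WT (difference -0.59, adjusted p = 0.565).

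Nr4a1, which encodes the nuclear receptor Nur77 and is used as a reporter of TCR signal strength, had tight values in both groups. It read -2.23, -2.30 and -2.18 in LAT KO and -0.69, -0.36 and -0.57 in WT, 3.24-fold lower. Its relative Nr4a3 did not pass, although its arrays did not overlap: -6.01, -5.54 and -5.36 in LAT KO and -4.44, -4.18 and -4.14 in WT (difference -1.38 ± 0.35, adjusted p = 0.18). Nr4a2 overlapped between the groups (-0.33, adjusted p = 0.573). Nab2, a corepressor of EGR proteins and itself a target of them, read -4.69, -4.20 and -4.10 in LAT KO and -3.12, -3.08 and -3.14 in WT, a difference of -1.22 ± 0.28 that did not pass (adjusted p = 0.128). Nab1 differed by -0.07. Irf4, the IRF factor whose level follows TCR strength, read -1.995, -1.73 and -2.28 in LAT KO and 0.32, -0.03 and 0.06 in WT. It was 4.35-fold lower, and here LAT KO replicate 2 was the array nearest to WT.

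**Figure D2:**
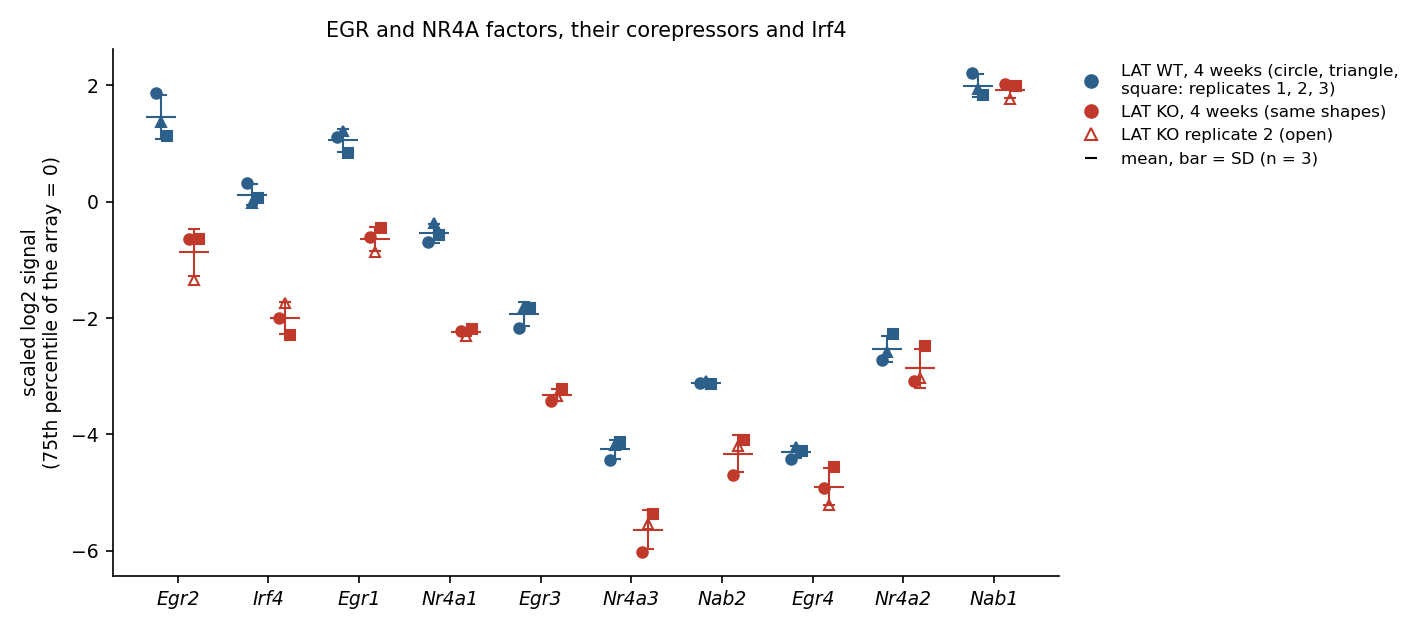
Scaled log2 signal of the 10 EGR and NR4A factors, corepressors and Irf4 in each of the 6 arrays (points; blue WT, red LAT KO, open triangle LAT KO replicate 2), with the group mean and SD. The groups do not overlap in Egr2, Irf4, Egr1, Nr4a1, Egr3, Nr4a3, Nab2 and Egr4, and they overlap in Nr4a2 and Nab1.

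Egr2, Irf4 and Nr4a1 passed the threshold in all 25 alternative settings. Egr1 and Egr3 did not pass without LAT KO replicate 2 (adjusted p = 0.168 and 0.155), and 3 of the 10 genes in place of 5 were called without LAT KO replicate 1, without LAT KO replicate 2, without WT replicate 2 and without WT replicate 3.

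No gene of the other lists of TCR-induced genes passed. Of 15 AP-1 and immediate early genes none was called (median -0.43). At an unadjusted p under 0.05, 4 had a lower value (5.1% of all tested) and none a higher one. Without LAT KO replicate 2, 2 had a lower value at that level (2.27% of all tested) and the median was -0.39. Fos, a partner of JUN proteins in AP-1, read -6.48, -6.40 and -6.14 in LAT KO and -3.52, -4.19 and -4.65 in WT (difference -2.22 ± 0.44, adjusted p = 0.0716). Of 21 feedback regulators of TCR signalling none was called, 6 had a positive difference, and the median of -0.20 (-0.125 without LAT KO replicate 2) was close to that of all tested (-0.17 and -0.11). Dusp6, an ERK phosphatase, differed by -0.86 ± 0.17 (adjusted p = 0.0656) and Dusp4 by -0.71 (0.293). Ptpn6, which encodes the phosphatase SHP-1, differed by -0.56 (0.224). Ubash3a, a negative regulator of TCR signalling, went the other way at 0.59 (0.237).

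The promoters of Egr2 and of 3 interferon genes are shown because these groups moved in opposite directions and different factors are known to bind them. Among the called genes of their groups with a window, these are the ones that held a match, so they do not stand for the others. That of Apol9b is shown because it fell yet holds the letters of the interferon genes. RefSeq promoter windows (GRCm38.p6, 250 bases before to 50 after a transcript start) were found for 17 of the 24 called genes with a symbol and are printed 5′ to 3′ on the gene's strand up to 30 bases after the start. Capitals mark the serum response factor (SRF) site in Egr2 and matches on either strand to the interferon-stimulated response element GAAANNGAA in the others, with overlapping matches counted apart and shown as 1 run.
Egr2, chr10:67537680-67537959, plus strand: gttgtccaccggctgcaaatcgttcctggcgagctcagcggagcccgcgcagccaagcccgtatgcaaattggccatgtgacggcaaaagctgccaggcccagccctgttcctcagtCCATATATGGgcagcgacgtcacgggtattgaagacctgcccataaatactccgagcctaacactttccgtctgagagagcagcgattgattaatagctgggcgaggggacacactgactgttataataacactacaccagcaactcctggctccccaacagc
Oas3, chr5:120777630-120777909, minus strand: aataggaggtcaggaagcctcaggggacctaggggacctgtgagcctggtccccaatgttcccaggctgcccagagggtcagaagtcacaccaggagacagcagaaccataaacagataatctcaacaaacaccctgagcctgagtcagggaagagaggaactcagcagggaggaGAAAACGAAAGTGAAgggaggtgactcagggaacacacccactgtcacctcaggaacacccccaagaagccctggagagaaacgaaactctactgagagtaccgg
Stat2, chr10:128270248-128270527, plus strand: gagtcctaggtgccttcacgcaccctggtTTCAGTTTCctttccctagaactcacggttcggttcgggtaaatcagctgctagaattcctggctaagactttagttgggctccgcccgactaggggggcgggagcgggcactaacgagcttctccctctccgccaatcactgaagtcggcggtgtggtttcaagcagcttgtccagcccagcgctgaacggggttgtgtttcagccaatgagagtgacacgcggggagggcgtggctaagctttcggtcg
Ifitm3, chr7:141010715-141010994, minus strand: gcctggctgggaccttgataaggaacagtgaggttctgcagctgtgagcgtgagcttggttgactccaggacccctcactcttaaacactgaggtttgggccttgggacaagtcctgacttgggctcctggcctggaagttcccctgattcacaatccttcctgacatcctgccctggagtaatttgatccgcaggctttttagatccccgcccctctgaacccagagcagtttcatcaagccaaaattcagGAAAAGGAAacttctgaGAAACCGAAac
Apol9b, chr15:77728822-77729101, plus strand: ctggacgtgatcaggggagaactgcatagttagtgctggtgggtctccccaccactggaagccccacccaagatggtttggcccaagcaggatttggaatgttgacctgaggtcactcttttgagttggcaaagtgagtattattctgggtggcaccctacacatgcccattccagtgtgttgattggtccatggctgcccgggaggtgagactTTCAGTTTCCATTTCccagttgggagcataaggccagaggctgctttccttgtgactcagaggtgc

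The interferon-stimulated response element lay in the windows of 3 of 9 called genes that rose (Ifitm3, Oas3 and Stat2) and of 2 of 8 that fell (Apol9b and 1 window of Egr2). The windows of the called interferon genes Irf7, Helz2, Parp12 and Znfx1 did not hold it. All windows of the same length held it in 9.76% of 27025 genes. In Oas3 the pair of overlapping matches starts at -75 from the annotated start, in Stat2 the match starts at -221, in Apol9b the pair starts at -36, and in Ifitm3 the matches start at 3 and 20, just after it. Over the tested interferon genes described after this, 54 of 133 with a window held the letters, and 20 of 40 antiviral effectors did. The SRF site, known from genes induced through ERK, lay in 4 of 5 windows of Egr2 and in no other matched called gene, against 1.81% of all genes. The early factors Irf4 and Nr4a1 are thus among those without it. Windows of Egr2 overlap, so the same site is counted in several of them. Egr1, Egr3 and Wnt10a had no window and were not searched. The cAMP response element TGACGTCA and the NR4A site AAAGGTCA lay in no window of a called gene (2.03% and 1.7% of all genes), and the EGR site GCGTGGGCG lay in that of Sh3gl3 (0.707% of all genes). These matches describe letters in a window and say nothing of binding.

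Transporter, membrane traffic and ligand genes were among the other falls. Syp, which encodes the synaptic vesicle protein synaptophysin, had nearly equal LAT KO values of 2.93, 2.92 and 2.91 against 4.89, 4.34 and 4.46 in WT. It was 3.12-fold lower and passed in all 25 alternatives. Sh3gl3, an endophilin of endocytosis, was 2.19-fold lower (-1.89, -2.26 and -1.82 in LAT KO, -0.72, -1.11 and -0.75 in WT). Apol9b, an apolipoprotein L gene, was 1.9-fold lower with the narrowest WT values (3.02, 2.78 and 3.005 in LAT KO, 3.82, 3.83 and 3.94 in WT). Slc22a2, an organic cation transporter gene, was 2.83-fold lower and Wnt10a, a Wnt ligand gene, 2.65-fold lower. Both stood at the threshold (adjusted p = 0.0491 each) and passed in 9 and 5 of the 25 alternatives.

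Olfr1026, an olfactory receptor gene, had the lowest difference among named called genes but rests on WT arrays that stand apart. It read 0.48, 0.01 and 0.33 in LAT KO and 3.04 and 2.73 in WT replicates 2 and 3, and its spot in WT replicate 1 was left out as an outlier. The other groups of the series were near the LAT KO level, at 0.09 ± 0.24 in 1-week WT, 0.04 ± 0.89 in 1-week LAT KO and 0.50 ± 0.61 in 4-week Y136F cells (SD, n = 3). At 1 week the LAT KO effect on it was -0.05. Of the 7 unnamed called sequences 2 fell and 5 rose. The one with the largest rise, AK043468 by its accession, read 1.01 and 0.34 in LAT KO replicates 2 and 3 against -3.11, -2.34 and -2.61 in WT, with its spot in LAT KO replicate 1 left out.

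Genes of the interferon response were shifted upward, a few of them past the threshold. Of 163 tested genes of the interferon lists, 8 rose, 1 fell (Irf4, listed with the IRF family) and the rest were not called. Of all tested, 0.057% rose and 0.0412% fell, and the calls in each list below are to be set beside these shares. Apol9b, which fell and has 2 matches to the response element in its window, is in none of these lists and not in the count. The median difference of the 163 was 0.40, or 0.36 without LAT KO replicate 2, against -0.17 and -0.11 for all tested. Every LAT KO array lay above every WT array in 95 of the 163 with all arrays (9.17% of all tested) and in 101 without LAT KO replicate 2 (12.1% of all tested). At an unadjusted p under 0.05, 85 were higher and 3 lower, against 5.86% and 5.1% of all tested. Without that replicate 63 were higher and 1 lower, against 2.8% and 2.27% of all tested.

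The ligands did not move with the responding genes. Of 11 tested interferon genes none passed even at an unadjusted p under 0.05, and their median was -0.27 (-0.33 without LAT KO replicate 2). Ifnb1 read -2.42, -2.73 and -2.40 in LAT KO and -2.43, -2.49 and -2.33 in WT. Ifng, the type II interferon, overlapped between the groups (0.26 ± 0.44).

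Among receptors and signalling genes 1 gene rose and the receptor chains differed little. Ifnar1 differed by 0.26, Ifnar2 by 0.08, Ifngr1 by -0.12 and Ifngr2 by -0.15, and none passed at an unadjusted p under 0.05. Stat2 rose: it read -0.51, -0.16 and -0.46 in LAT KO and -1.63, -1.40 and -2.16 in WT, 2.56-fold higher. Irf9, which binds DNA in the same complex, did not pass at 0.50 ± 0.17 (adjusted p = 0.35), although every LAT KO array lay above every WT array. A further probe of Irf9 differed by 0.28, and there the arrays overlapped. Usp18, which dampens signalling from the interferon receptor, differed by 1.18 ± 0.25 (0.0829). Of the 16 genes 5 were higher at an unadjusted p under 0.05 with and without LAT KO replicate 2 (5.86% and 2.8% of all tested). Stat2 did not pass the adjusted threshold without that replicate (limma adjusted p = 0.251).

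In the IRF family Irf7 rose and Irf4 fell, and the other 9 of 11 were not called. Irf7, the factor that amplifies type I interferon transcription, read 2.83, 3.001 and 2.89 in LAT KO and 1.64, 1.14 and 0.48 in WT, 3.54-fold higher. The LAT KO arrays were close together and the WT arrays spread over more than 1 log2 unit. Irf1 differed by 0.10, Irf3 by 0.12 and Irf8 by -0.54 (adjusted p = 0.736, 0.648 and 0.488).

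Antiviral effectors held 4 of the 8 called interferon genes. Of 46 tested, 4 rose, 0 fell and 42 were not called, 43 had a positive difference (34.7% of all tested), and the median was 0.74, or 0.70 without LAT KO replicate 2. At an unadjusted p under 0.05, 33 were higher, or 27 without that replicate (5.86% and 2.8% of all tested), and none lower. Oas2 and Oas3 encode oligoadenylate synthetases that activate RNase L on viral RNA. Oas2 read -1.14, -0.12 and -1.15 in LAT KO and -2.75, -3.16 and -3.83 in WT, 5.43-fold higher, with LAT KO replicate 2 about 1 log2 unit above the other 2. Oas3 read 3.56, 3.59 and 3.44 in LAT KO and 1.88, 1.99 and 0.99 in WT, 3.76-fold higher, with LAT KO replicate 2 level with the others. Ifitm3, a membrane protein that blocks virus entry, read 2.001, 2.49 and 1.78 in LAT KO and 0.85, 0.28 and -0.17 in WT, 3.42-fold higher. Helz2, an interferon-induced helicase gene, read 1.21, 1.74 and 1.14 in LAT KO and 0.32, 0.36 and -0.22 in WT, 2.32-fold higher. Oasl2 (2.20 ± 0.42, adjusted p = 0.059), Rsad2 (1.76 ± 0.37, 0.0962) and Adar (0.74 ± 0.15, 0.0791) were of similar size or precision and did not pass.

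**Figure D3:**
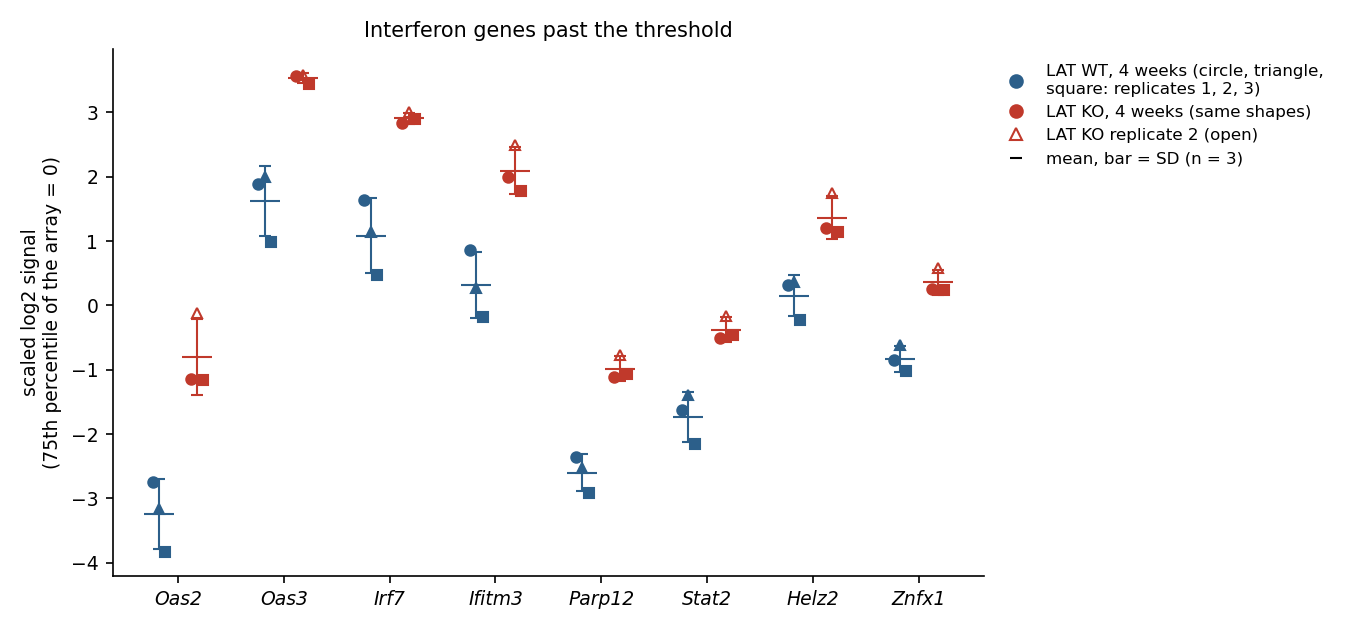
Scaled log2 signal of the 8 interferon genes past the threshold in each of the 6 arrays (points; blue WT, red LAT KO, open triangle LAT KO replicate 2), with the group mean and SD. In each gene the LAT KO arrays lie above the WT arrays, and LAT KO replicate 2 is the highest LAT KO array.

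Of 19 nucleic acid sensing genes, 14 had a positive difference and 5 a negative one. At an unadjusted p under 0.05, 9 were higher and 1 lower (5.86% and 5.1% of all tested). Without LAT KO replicate 2, 7 were higher and 0 lower (2.8% and 2.27% of all tested). Znfx1, a helicase gene of antiviral RNA sensing, read 0.25, 0.58 and 0.24 in LAT KO and -0.85, -0.62 and -1.03 in WT and was the 1 sensor of 19 that rose (2.28-fold). Ddx58, which encodes RIG-I, differed by 0.86 (adjusted p = 0.128), Ifih1, which encodes MDA5, by 1.09 (0.212) and Tlr7 by 0.96 (0.245). The 5 negative ones were Tlr8 at -0.90, Tlr9 at -0.86, Ticam1 at -0.29, Tbk1 at -0.28 and Mavs at -0.22, and none was called. A further probe of Tbk1 went the other way at 0.22, while that of Ticam1 differed by -0.28 and that of Ifih1 by 1.30. None of the 5 tested genes of ISG15 and its conjugation was called, yet in all 5 every LAT KO array lay above every WT array with and without LAT KO replicate 2 (9.17% and 12.1% of all tested), and the median was 1.1 (0.97 without LAT KO replicate 2). Isg15 read 1.11, 1.45 and 1.06 in LAT KO and 0.53, -0.01 and -0.18 in WT (adjusted p = 0.297).

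In the PARP family 1 gene rose and most others lost their unadjusted p without LAT KO replicate 2. Parp12, an ADP-ribosyltransferase of antiviral defence, read -1.12, -0.76 and -1.07 in LAT KO and -2.36, -2.53 and -2.92 in WT, 3.06-fold higher. Of 10 tested, 8 were higher at an unadjusted p under 0.05, but 2 without LAT KO replicate 2 (5.86% and 2.8% of all tested). The median was 0.41 with that replicate and 0.32 without it. Among 15 GBP and IRG GTPases, which act against pathogens inside the cell, none was called (median 0.46 with and without that replicate). Irgm1 was at 0.79 ± 0.17 (limma adjusted p = 0.101) and Gbp4 at 0.84 ± 0.21 (0.183). A further probe of Irgm1 differed by 0.32, and there the arrays overlapped. All 11 TRIM genes had every LAT KO array above every WT array (9.17% of all tested) and positive differences of 0.37 to 0.84 (34.7% of all tested were positive), and none was called (median 0.58, or 0.52 without that replicate). Of 18 genes of MHC class I and its peptide loading none was called (median 0.06, or 0.16 without that replicate), with H2-T24 at 1.07 (0.15) and Tap1 at 0.68 (0.291). In the 6 tested Ly6 genes of the lists none was called. Ly6i, a Ly6 surface protein gene outside those lists, rose 2.22-fold (3.94, 4.39 and 3.72 in LAT KO, 3.17, 2.77 and 2.65 in WT). Members of the Oas, Ifit, Gbp, Trim, Ly6 and H2 families are close in sequence, and cross-hybridisation between them was not tested.

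**Figure D4:**
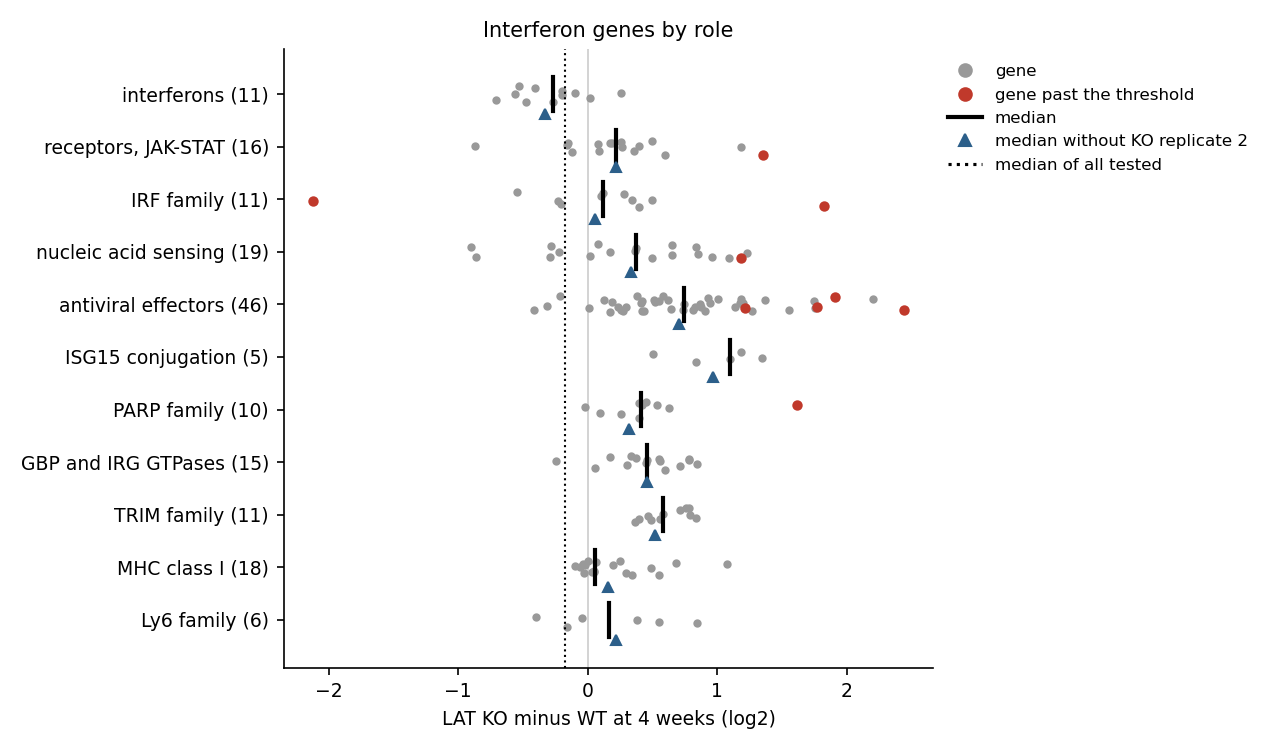
LAT KO minus WT difference (log2) of each tested interferon gene by role, with the number tested in parentheses. Black bars are medians, blue triangles the medians without LAT KO replicate 2, red points the called genes, and the dotted line the median of all tested. The median is 1.1 for ISG15 conjugation, 0.74 for antiviral effectors and -0.27 for the interferons themselves.

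The called interferon genes were sensitive to single arrays of both groups. Of the 8 rises none passed without LAT KO replicate 2 (adjusted p from 0.121 for Parp12 to 0.367 for Ifitm3), although their sizes stayed between 1.02 and 2.10. None of the interferon genes passed without WT replicate 3 either, 1 without LAT KO replicate 1, 3 without LAT KO replicate 3, 4 without WT replicate 2 and 11 without WT replicate 1. LAT KO replicate 2 was the highest LAT KO array in 88 of the 124 genes of the response lists (all interferon lists but ligands, IRF family and MHC class I), against 33.1% of all tested. The WT arrays differed among themselves too. WT replicate 1 was the highest WT array in 87 of the 124 (30.3% of all tested) and WT replicate 3 the lowest in 86 (30.6%). The difference on slide 3 (LAT KO replicate 3 minus WT replicate 3) had a median of 0.61 over the 124 and that on slide 4 (LAT KO replicate 1 minus WT replicate 1) one of 0.29. Both within-slide values were in the direction of the whole. Of the 31 called, all 31 kept their sign on slide 3 and all 29 with a value on slide 4. That was fixed in advance, because their LAT KO and WT arrays did not overlap.

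Further probes of the called genes had the same sign. For 5 of the 24 called genes with a symbol, all of them rises, the array holds 6 other probes. All 6 had a positive difference (34.7% of all tested), and in 5 of the 6 the arrays did not overlap (9.17% of all tested in the upward direction). They were read on the same arrays by which the genes were chosen, so they are no independent test. The second probe of Oas2 differed by 2.10, that of Oas3 by 1.39 and that of Helz2 by 0.91. Those of Ppm1h differed by 1.22 and 0.94, while that of Zdhhc7 overlapped between the groups at 0.20.

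Metabolite transporters and signalling enzymes made up the other named rises. Slco3a1, an organic anion transporter gene, was the 1 rise that passed in all 25 alternatives. It read 2.24, 2.27 and 2.28 in LAT KO and 1.07, 1.07 and 0.89 in WT, 2.39-fold higher with a difference of 1.26 ± 0.16 (adjusted p = 0.00308, or 0.0277 without LAT KO replicate 2). Slc16a5, a monocarboxylate transporter gene, read 0.18, 0.68 and 0.06 in LAT KO and -0.95, -0.87 and -1.06 in WT, 2.41-fold higher. Ppm1h, a protein phosphatase gene, was 2.07-fold higher (2.29, 2.73 and 2.33 against 1.36, 1.51 and 1.33). Zdhhc7, a palmitoyltransferase gene, was 1.68-fold higher by its brightest probe (0.86, 0.94 and 1.01 against 0.36, 0.07 and 0.13).

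Genes of the TCR pathway upstream of transcription were not called. Of 36 tested genes for the TCR, its CD3 chains and their proximal signalling, 7 were higher and 2 lower at an unadjusted p under 0.05 (median 0.13). Without LAT KO replicate 2, 4 were higher and 2 lower at that level, and the median was 0.16. Of all tested, 5.86% were higher and 5.1% lower at that level, or 2.8% and 2.27% without that replicate. Tec, a kinase of the phospholipase C-gamma 1 pathway, differed by 0.65 ± 0.16 (adjusted p = 0.184), Pag1, an adaptor that recruits the inhibitory kinase CSK, by 0.63 (0.243) and Themis by 0.52 (0.262). Hdac7, a class IIa histone deacetylase, read 0.91, 0.97 and 0.91 in LAT KO and 0.08, 0.53 and 0.19 in WT (difference 0.66, adjusted p = 0.243). None of 15 calcium and NFAT genes or of 11 NF-kappaB genes was called.

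No gene of the T cell state lists was called, and several lists followed single arrays. Of 21 regulatory T cell genes none was called. At an unadjusted p under 0.05, 8 were lower (5.1% of all tested) and none higher, or 6 lower without LAT KO replicate 2 (2.27%). The median was -0.47, or -0.29 without that replicate. Tnfrsf9, which encodes 4-1BB, read -1.22, -1.92 and -1.34 in LAT KO and 0.79, 0.20 and -0.07 in WT (adjusted p = 0.0733). WT replicate 1 was the highest WT array in 20 of these 21 genes and LAT KO replicate 2 the lowest LAT KO array in 17, against 30.3% and 45.8% of all tested. Among 19 anergy and inhibitory receptor genes none was called, with Cd200 at -1.31 ± 0.29 (adjusted p = 0.127) and Lag3 at -1.59 ± 0.46 (0.255). In 37 memory and effector genes none was called and LAT KO replicate 2 was the lowest LAT KO array in 34, and the median was -0.02 with it and 0.14 without it. Gzma, a granzyme gene and also an NK cell marker, read -1.61, -2.28 and -1.60 in LAT KO and -4.15, -4.42 and -3.59 in WT, apart in every array but not called (2.22 ± 0.61, adjusted p = 0.237). Of 44 proliferation genes none was called and 4 were lower at an unadjusted p under 0.05, or 0 without LAT KO replicate 2 (5.1% and 2.27% of all tested). Of 27 cholesterol synthesis genes none was called and 6 were higher at that level, or 3 without LAT KO replicate 2 (5.86% and 2.8% of all tested).

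The sorted cells carried their defining markers in both groups. All 12 tested markers of naive CD4+ T cells were well above background on all 6 arrays, and none differed at an unadjusted p under 0.05. Markers of other cells were also above background on all 6 arrays, 15 of 15 for B cells and 17 of 18 for myeloid cells, and none of these was called. LAT KO replicate 2 was low in them: the mean signal of the 15 B cell markers was -1.91 there, -0.76 and -0.82 in the other LAT KO arrays and -1.21 to -0.84 in WT. It was the lowest LAT KO array in 14 of the 15 B cell, 15 of 18 myeloid and 10 of 11 NK cell markers. Without it the median difference of the B cell markers was 0.09 in place of -0.18. The part of these markers in the interferon and T cell state results was not tested.

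After 1 week of LAT loss the same 31 differences had the same sign in all 31. The share of all tested with the same sign at both times was not counted. Some of the 31 were close to 0 at 1 week, such as AK043468 at 0.09 (from 1 LAT KO value) and Olfr1026 at -0.05 ± 0.40. Each LAT KO group holds an array that went against its sex label. The 1-week comparison has its own WT arrays. In it 6 genes were called lower (0.019%) and 0 higher (limma). An unadjusted p under 0.05 in either direction was found for 905, or 2.87%. When the 4-week effect was tested against the 1-week effect, no gene passed in limma (1615, or 5.12%, had an unadjusted p under 0.05). The change from 1 to 4 weeks was 0.11 ± 0.39 for Egr2, 0.62 ± 0.38 for Egr1, 0.13 ± 0.30 for Egr3, -0.10 ± 0.33 for Irf4 and 0.32 ± 0.22 for Nr4a1, where a positive value is a smaller fall at 4 weeks and a negative one a larger fall. Among the interferon genes it was 1.51 ± 0.56 for Oas2, 0.86 ± 0.27 for Helz2 and 0.57 ± 0.42 for Irf7. Here a positive value is a larger difference from WT, and none of these passed (limma adjusted p = 0.815 for each of the 3). The differences of Ppm1h and Zdhhc7 were 0.13 ± 0.17 and 0.17 ± 0.13 at 1 week. In all of these genes the WT mean was lower at 4 weeks, while the LAT KO mean changed little. From 1 to 4 weeks the WT mean went from -1.56 to -3.25 in Oas2 and from 2.32 to 1.40 in Ppm1h. The LAT KO mean went from -0.62 to -0.80 and from 2.44 to 2.45. In Helz2 WT went from 1.01 to 0.15 and LAT KO stayed at 1.36. The cause was not tested.

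Against Y136F cells of the same time, 329 were higher in LAT KO (1.04%) and 734 lower (2.32%). All Y136F mice were labelled female and the LAT KO mice male, so by the labels sex and genotype cannot be told apart. LAT KO replicate 2, however, read female at Xist and the Y-linked genes. Without LAT KO replicate 2, 441 in all were called, with the sex label as a term 167 and with slide as a fixed term 681. The sex term used the labels as given, also for that array and the 1-week LAT KO array with the opposite pattern. Y136F replicate 3 stood as far from its group as LAT KO replicate 2 did (8.79% of genes 1 log2 unit or more away), and no fit without it was run. The values that follow are with all arrays. The comparisons of the mutants with WT share their WT arrays, so the direct contrast is given. It still uses the LAT KO arrays by which the called genes were chosen, so the counts lean toward a difference in the called direction. Of the 18 rises 6 differed between LAT KO and Y136F and of the 13 falls 9 did. Egr1 and Egr2 were lower in LAT KO than in Y136F cells by -2.14 ± 0.27 and -2.17 ± 0.27 (adjusted p = 0.000237 for each), while Y136F minus WT was 0.44 and -0.16. Irf4 differed between the mutants by -1.07 ± 0.23 (0.0139) and was lower than WT in Y136F cells too (-1.05, 0.0156). Slc16a5 was higher in LAT KO than in Y136F cells by 1.88 ± 0.20 (5.25e-05), and Oas2 by 1.69 ± 0.39 (0.021). Apol9b was higher in LAT KO than in Y136F cells by 0.74 ± 0.15 (0.00779), and Y136F minus WT was -1.67. For Oas3 (0.37 ± 0.31, 0.826), Ifitm3 (-0.67 ± 0.33, 0.436) and Slco3a1 (-0.17 ± 0.16, 0.886) no difference between the mutants passed.

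**Figure D5:**
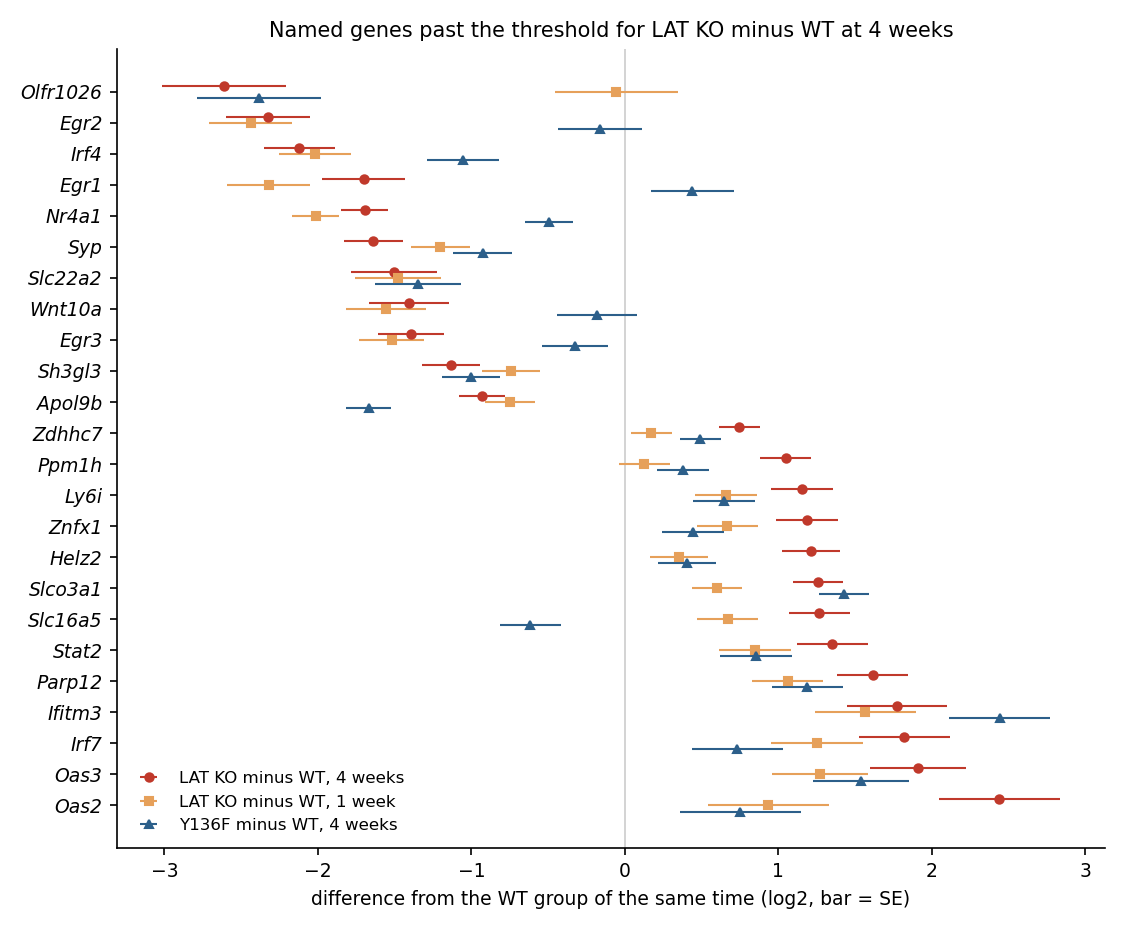
Difference from the WT group of the same time (log2, bars are SE) for the 24 named called genes, for LAT KO at 4 weeks (red), LAT KO at 1 week (orange) and Y136F at 4 weeks (blue). In Y136F cells Egr2 lies at -0.16, Wnt10a at -0.18 and Egr1 at 0.44, and Olfr1026 lies near 0 in LAT KO cells at 1 week.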

How the data were processed

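According to Agilent's own software (Feature Extraction 10.5.1.1, array design of build mm9, per the file headers), the deposited processed signal of a spot is an intensity on a linear scale, already corrected for background. Per the submitters' processing notes, Feature Extraction 10.5 and limma were used. The authors' deposited matrix is on a log2 scale (column medians 8.56 to 8.57), and its exact scaling is not given in the sources used here. It served as an alternative.

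Each intensity was turned into log2 and centred on its array's 75th percentile over 43379 non-control spots. Outlier spots (189 to 952 on the 6 arrays) were left out, and spots of 1 probe were averaged. A RefSeq table (GRCm38.p6) named 24844 of 41174 probes by accession, and the brightest probe of a gene was kept if well above background on at least 3 of 18 arrays. limma 3.58.1 (R 4.3.3) fitted 1 mean per group over all 18 arrays with an intensity trend, which leaves 12 residual degrees of freedom. All tests had 2 sides, and limma p-values were adjusted by Benjamini-Hochberg. They set a difference against the spread between arrays within the groups. With 1 mouse per array, that spread holds mouse, slide and hybridisation together. The method was tested on simulated data.

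Of 651 distinct genes matched in 38 lists, 599 were tested, and Mx1, Mx2 and Herc6 are among those without a named probe. The genes named are Lat, the called genes, members of the early factor, IRF and interferon lists, the members of other lists with the smallest p, and sex-linked genes as a label check. The Y136F values, further probes and unnamed sequences follow from the called genes. The members, lists and tests were chosen with earlier results of these data known. Alternatives covered background correction (normexp on the median spot intensity, since the mean was not at hand), scaling, filters, probe rules, models, slide, sex, replicate number and each 4-week LAT KO or WT array left out. Python 3.11.15, pandas 2.3.3 and matplotlib 3.10.9 made tables and figures.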

Additional observations from a re-analysis of the deposited data

Results flagged for a closer look

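Irf2bpl, an IRF2-binding protein gene of the IRF family list, had its LAT KO arrays wholly above WT at 4 weeks (difference 0.34) and wholly below WT at 1 week (-0.31), a change of 0.66 on the log2 scale. The opposite directions drew attention to it, and it was not called in the test of that change over all genes.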

How the results depend on the processing

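All 31 called genes and sequences kept their sign in the 25 alternatives, and the 5 that also pass without LAT KO replicate 2 passed in each of them. Against 31 calls, 8 of interferon genes and 5 of early factors, a fit on the 12 WT and LAT KO arrays gave 6, 1 and 3, and one with no intensity trend 7, 1 and 4. Array weights gave 4360, 80 and 7, with 1 gene for the change of effect between times and 2346 for LAT KO against Y136F, and Lat then passed at -0.88 (adjusted p = 0.00805). Slide as a random block gave 47 calls. LAT KO against Y136F gave 681 with slide as a fixed term and 167 with the sex label as a term. The series matrix gave 36 calls, 26 higher and 10 lower, against 18 and 13. Leaving out 1 of the 6 arrays of 4-week LAT KO and WT gave 5 to 38 calls in all, 0 to 11 of interferon genes, 3 to 5 of early factors and 441 to 999 against Y136F, whose own arrays were not left out. Without LAT KO replicate 2 and 1-week LAT KO replicate 1 together there were 17 calls, 0 of interferon genes, and 2 for the change of effect. Replicate number as a block gave 28 calls, or 47 with the replicate block on the 6 arrays only. Same-numbered arrays deviated together with r = 0.0346, 0.0329 and 0.282, and LAT KO replicate 2 correlated best with WT replicate 1, so the numbers were not taken as pairs. The causes were not tested, beyond the fewer arrays in some fits. Other scalings, filters and probe rules gave 23 to 41 calls. With 3 arrays a group, the number of arrays limits the precision.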
